A study of Rattus norvegicus with 20 samples.

Results

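The genes examined here are 8 genes that mark reactive astrocytes and injured tissue: Gfap (ENSRNOG00000002919), Vim (ENSRNOG00000018087), Cd44 (ENSRNOG00000006094), Timp1 (ENSRNOG00000010208), Lgals3 (ENSRNOG00000010645), Lcn2 (ENSRNOG00000013973), Hspb1 (ENSRNOG00000023546) and Hmox1 (ENSRNOG00000014117). They were chosen by gene ID from a fixed list, with earlier results of these data known. All 8 were present among the 32883 rat gene IDs of the count table. The table holds IDs without names, so each symbol is the one paired with its ID in that list, and no annotation at hand could check the pairs. RNA was sequenced from subiculum tissue cut out of brain sections by laser, in 20 libraries from wild-type Wistar rats aged 3 months. The 4 groups of 5 libraries were dorsal subiculum of controls, ventral subiculum of controls, and the same regions taken 24 hours after a protocol labelled preconditioning. According to the series title, that protocol was an acute seizure evoked by stimulating the perforant pathway, the main cortical input to the hippocampus. The labels do not give the animals' sex, do not say whether control animals carried electrodes, and do not say whether a library came from 1 animal or from a pool. The tissue could not be checked against markers of subiculum, because the other gene IDs could not be named.

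After seizures, trauma or ischaemia, astrocytes enlarge, assemble more intermediate filaments and change what they secrete, a state called reactive astrogliosis. Gfap encodes the filament protein that defines the state, and Vim encodes vimentin, its filament partner, which endothelial and microglial cells also make. Cd44 is the cell-surface receptor for hyaluronan, and Timp1 is a secreted inhibitor of matrix metalloproteinases. Lgals3 encodes galectin-3, a sugar-binding protein best known from activated microglia and macrophages, and Lcn2 encodes lipocalin-2, a secreted iron-siderophore carrier. Hspb1 encodes a small heat shock protein (Hsp27), and Hmox1 encodes heme oxygenase 1, an enzyme that breaks down heme and is induced by oxidative stress.

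The 250 bases upstream of the transcription start were taken from RefSeq (assembly GRCr8) for 6 of the 8 genes. The sequences of 4 are shown, for 3 genes that passed a test below and for Hspb1, the single gene of the 6 that held a heat shock element. Capitals mark matches, on either strand, to 5 motifs: AP-1 (TGANTCA), STAT (TTCNNNGAA), the heat shock element (GAANNTTC), the core of the antioxidant response element (TGACNNNGC) and NF-kB (GGGNNNNNCC). The Gfap window is chr10:88361662-88361911 on the minus strand, the Vim window chr17:81577011-81577260 on the plus strand, the Cd44 window chr3:109699425-109699674 on the minus strand and the Hspb1 window chr12:26432302-26432551 on the minus strand.
Gfap: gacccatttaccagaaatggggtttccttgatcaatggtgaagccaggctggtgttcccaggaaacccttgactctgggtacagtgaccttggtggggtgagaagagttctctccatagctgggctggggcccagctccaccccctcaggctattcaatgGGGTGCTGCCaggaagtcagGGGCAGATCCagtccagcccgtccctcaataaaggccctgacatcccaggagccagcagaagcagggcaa
Vim: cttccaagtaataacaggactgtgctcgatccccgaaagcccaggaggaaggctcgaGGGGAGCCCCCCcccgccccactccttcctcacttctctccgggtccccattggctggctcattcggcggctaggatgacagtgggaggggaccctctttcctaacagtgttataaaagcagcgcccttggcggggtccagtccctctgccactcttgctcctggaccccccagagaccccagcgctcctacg
Cd44: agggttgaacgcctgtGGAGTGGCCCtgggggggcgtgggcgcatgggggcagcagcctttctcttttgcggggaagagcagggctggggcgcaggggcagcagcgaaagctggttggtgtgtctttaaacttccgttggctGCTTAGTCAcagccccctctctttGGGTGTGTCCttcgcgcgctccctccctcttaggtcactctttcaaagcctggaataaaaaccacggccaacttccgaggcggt
Hspb1: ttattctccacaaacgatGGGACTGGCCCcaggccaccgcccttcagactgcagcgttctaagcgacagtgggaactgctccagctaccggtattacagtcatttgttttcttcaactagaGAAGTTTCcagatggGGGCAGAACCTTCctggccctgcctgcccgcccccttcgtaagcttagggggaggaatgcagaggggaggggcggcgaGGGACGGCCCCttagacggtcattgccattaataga

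Matches to the NF-kB letters were found in all 6 windows, and in 42.3% of 33469 rat promoter windows of the same length. The fixed letters of that motif are all G or C. The 6 windows held 56.8% to 62.4% G and C, against a median of 51.2% over all windows, and the share was not matched for this. Hspb1 held 2 heat shock elements, GAAGTTTC from 129 to 122 and GAACCTTC from 109 to 102 bases before the start, and the second overlaps an NF-kB match. No other pair of different motifs overlapped in these windows. Such an element was found in 7.23% of all windows. The antioxidant response core was found in Cd44 and Timp1, and in 10.1% of all windows. No AP-1 and no STAT match lay in any of the 6 windows, against 6.34% and 7.67% of all windows. These matches describe letters only and were not measured as binding.

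Library totals ranged from 3087146 to 20463678 counts, so that 3 counts in a library corresponded to between 0.144 and 0.928 CPM. CPM is the count scaled to a library of fixed size, here with TMM, a correction for library composition. Counting precision differed widely among the genes, with 332 to 23480 counts of Gfap per library, 0 to 85 of Lgals3 and 0 to 20 of Lcn2. On the first 5 principal components of all genes, 3 libraries each lay far from their group on 1 component: dorsal control 4 (PC4), ventral control 2 (PC2) and dorsal preconditioning 2 (PC5). The gap to the nearest library took 0.873, 0.723 and 0.821 of the group's range, against a criterion of 0.71 (Dixon), which ventral control 2 only just passed. Each component was searched in each group, and about 1 set in 20 would be flagged among normally distributed values. Results that rest on these 3 libraries are given with and without them, and leaving out dorsal control 4 alone changed no call among the 8 genes. In microdissected tissue, a change in the number of cells of a type and a change in RNA per cell cannot be told apart.

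**Figure D1:**
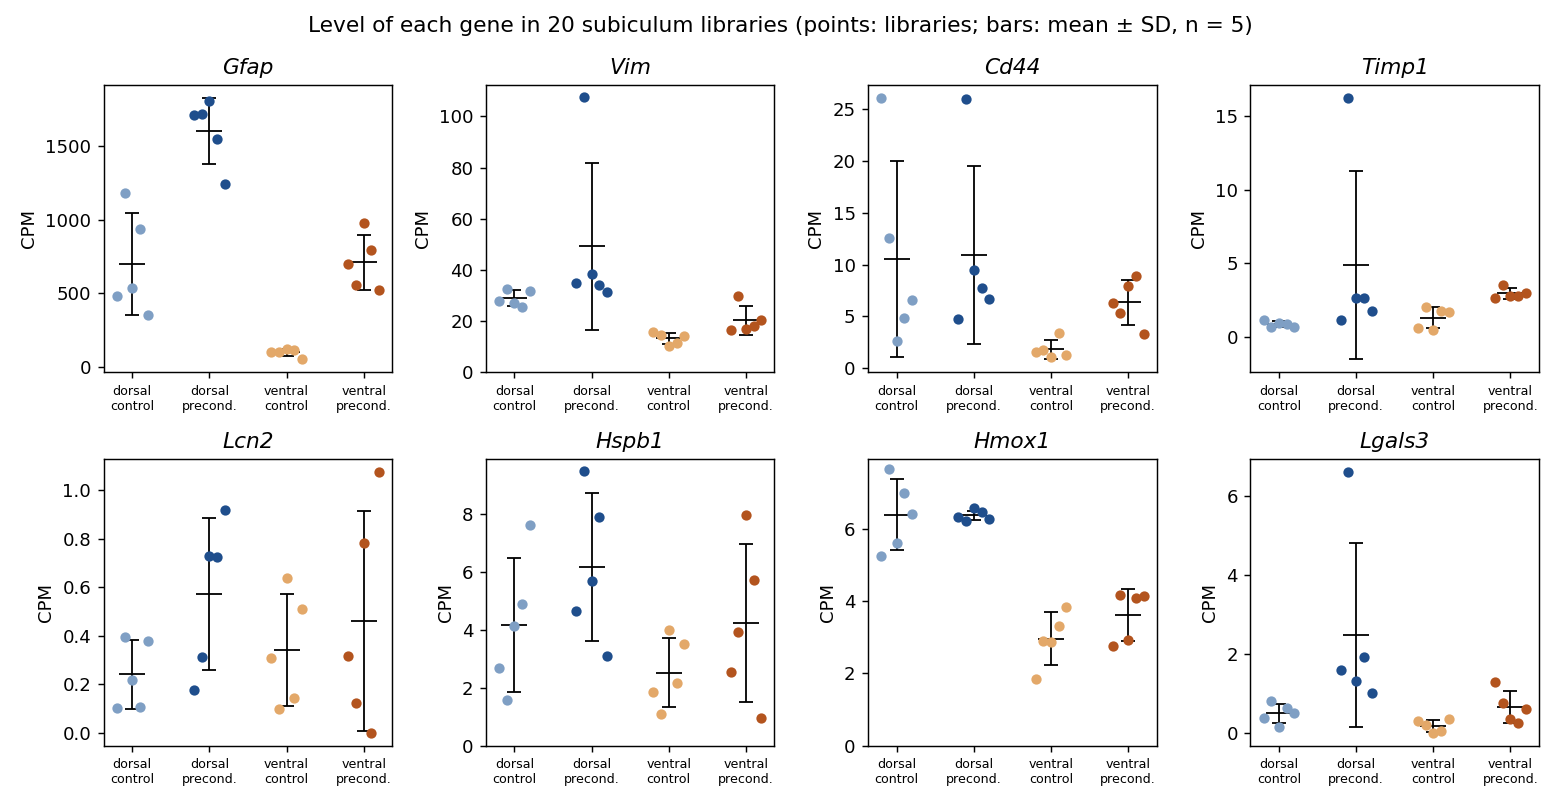
Level of each gene (CPM, linear axes that differ between panels) in the 4 groups; points are libraries in the order 1 to 5, and bars are the mean ± SD (n = 5). Gfap separates preconditioned from control libraries in both regions, whereas in Vim, Cd44, Timp1 and Lgals3 a single dorsal preconditioned library (number 2, at 107, 25.9, 16.2 and 6.61 CPM) lies above the other 4 of its group.

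The first question was how these genes stood 24 hours after the seizure protocol. In the ventral subiculum Gfap rose 7.22-fold and Cd44 rose 3.12-fold. In the dorsal subiculum no gene of the 8 was called (edgeR quasi-likelihood, adjusted p under 0.05), although Gfap was higher in every preconditioned library than in any control. Estimates for Vim, Timp1 and Hspb1 were above 0 in both regions without passing the test, and Hmox1 lay near 0 in the dorsal region. Fold changes are preconditioned over control. Of the 8 genes, 6 passed the filter on low counts in the ventral comparison (all but Lcn2 and Lgals3) and 2 of them were called, both higher, where 5.06% of all 13291 tested genes were called, 2.93% higher and 2.12% lower. In the dorsal comparison 7 passed the filter (all but Lcn2) and 0 were called, against 0.271% of 13647 tested genes, 0.213% higher and 0.0586% lower. Before adjustment, 4 dorsal p-values were under 0.05 (Gfap, Vim, Timp1 and Lgals3). By p-value these genes ranked 80, 650, 157 and 92 among the 13647 tested, and the share of all genes under 0.05 was not counted. DESeq2 called Gfap and Lgals3 there, among 167 called of 16207 tested genes. Lgals3 passed the edgeR low-count filter only where dorsal preconditioned libraries were in the fit. The median log2 fold change of the tested genes of the list was 0.76 in the dorsal and 0.86 in the ventral region, and that of all tested genes was -0.0073 and -0.011. Without dorsal preconditioning 2 the dorsal median was 0.33. Over the 6 genes tested in both regions, which leaves out Lgals3, it was 0.65 with that library and 0.29 without it.

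**Figure D2:**
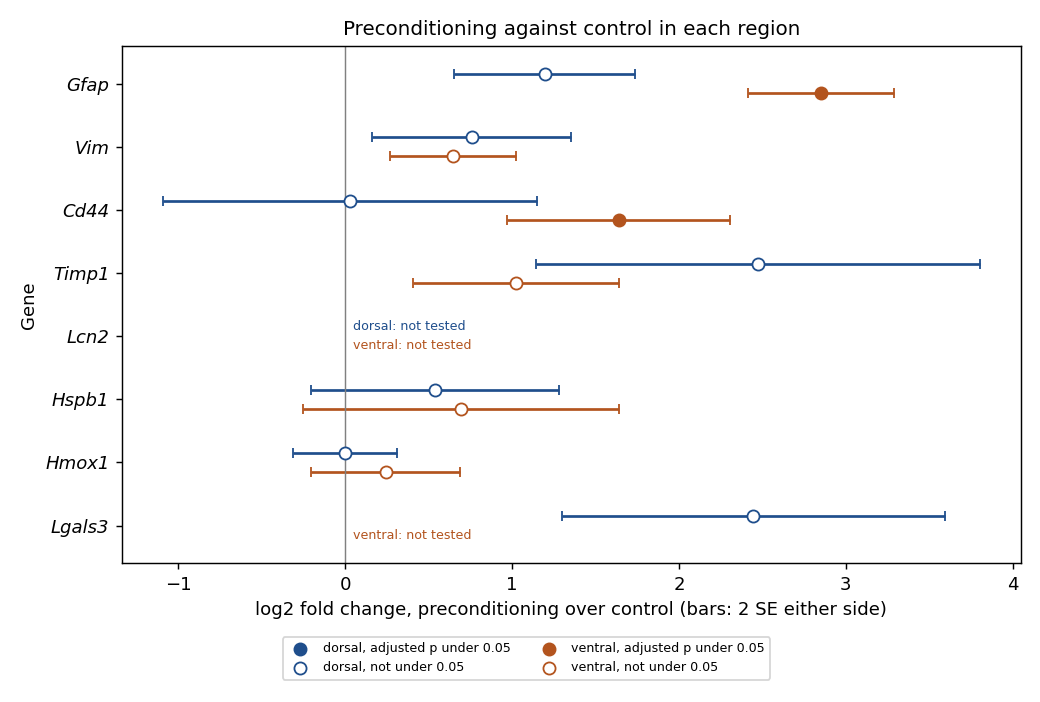
Log2 fold change of each gene, preconditioning over control, in the dorsal (blue) and ventral (orange) subiculum; bars reach 2 standard errors either side, and filled points passed an adjusted p of 0.05. The filled points are ventral Gfap (2.85) and ventral Cd44 (1.64); Lcn2, and ventral Lgals3, were not tested.

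Gfap, the astrocyte filament gene, was the member with the most counts in every library. In dorsal controls it measured 482, 1183, 533, 935 and 353 CPM in libraries 1 to 5. Dorsal preconditioned libraries measured 1707, 1713, 1805, 1544 and 1241 CPM. All 5 lay above the highest control, although by little for preconditioning 5, and the controls spread over a 3.35-fold range. The means were 697 ± 348 and 1602 ± 223 CPM (SD, n = 5 each). This is a 2.29-fold difference, 1.19 on the log2 scale (SE 0.27), with an unadjusted p of 0.000641 and an adjusted p of 0.109, so it was not called. Ranges without overlap on the higher side occurred in 1.13% of tested genes. The call for Gfap depended on the fit. It passed with DESeq2 (adjusted p = 0.00191), with limma-voom and sample weights (0.0331), with all 20 libraries in one edgeR fit (0.0327) and without dorsal control 2, the highest control (0.0261), and across all alternatives the adjusted p ran from 0.00191 to 0.318. The estimate itself stayed between 1.04 and 1.49.

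In ventral controls Gfap measured 103, 98.5, 119, 117 and 53.7 CPM. Ventral preconditioned libraries measured 697, 558.5, 975, 794 and 520 CPM. The lowest preconditioned library, number 5, lay far above the highest control. The means were 98.1 ± 26.3 and 709 ± 185 CPM (SD, n = 5 each), and the log2 fold change was 2.85 with an SE of 0.22 (adjusted p = 5.02e-06). By p-value Gfap ranked 7 among the 13291 tested genes. It was called in all 18 alternative fits, with log2 fold changes from 2.69 to 2.94. As a share of all counts, Gfap went from between 0.00555% and 0.0121% in ventral controls to between 0.05004% and 0.0975% after preconditioning. Ordered by mean level, Gfap was lowest in ventral controls, followed by dorsal controls, ventral preconditioned and dorsal preconditioned libraries. The middle pair, at 697 and 709 CPM, had overlapping ranges, and the neighbours on either side of it did not overlap.

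Vim, the filament partner, showed smaller differences. Dorsal controls measured 27.8, 32.5, 27.1, 25.4 and 31.8 CPM. Dorsal preconditioned libraries measured 35.0, 107, 38.3, 33.9 and 31.3 CPM. Library 2 stood far above the others, and the ranges overlapped through library 5. Dorsal Vim differed by 0.76 on the log2 scale (SE 0.30, adjusted p = 0.495), which was 0.25 without dorsal preconditioning 2 (adjusted p = 0.673). Ventral controls measured 15.8, 14.4, 10.1, 11.4 and 13.99 CPM, and ventral preconditioned libraries 16.4, 29.8, 16.7, 17.8 and 20.3 CPM. The ventral ranges did not overlap, but only narrowly, as did those of 3.82% of tested genes on the higher side. At 0.65 on the log2 scale (SE 0.19, adjusted p = 0.0676) the difference was not called. Without ventral control 2 the adjusted p was 0.0453, and across the alternatives it ran from 0.0115 to 0.219.

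Of the genes of the cell surface and matrix, Cd44 was called in the ventral region alone, although the difference between regions was not called (below). Ventral controls measured 1.55, 1.80, 1.12, 3.41 and 1.28 CPM. Ventral preconditioned libraries measured 6.27, 5.29, 7.95, 8.92 and 3.34 CPM. The ranges met at 1 point, where preconditioning 5 lay just under control 4. The means were 1.83 ± 0.920 and 6.35 ± 2.20 CPM (SD, n = 5 each), and the log2 fold change was 1.64 (SE 0.33, adjusted p = 0.00963). The call held without each library in turn (adjusted p between 0.00320 and 0.0383) and was lost in the fit of all 20 libraries (adjusted p = 0.114).

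Dorsal Cd44 varied widely within both groups. Controls measured 26.0, 12.5, 2.61, 4.88 and 6.59 CPM. Preconditioned libraries measured 4.74, 25.9, 9.47, 7.76 and 6.69 CPM. Each group held 1 library near 26 CPM, and the rest of both groups overlapped fully. The estimate was 0.029 (SE 0.56, adjusted p = 0.996), with an interval of 2 SE from -1.09 to 1.15, so that neither a rise nor a fall of 2-fold was outside it. It was -0.59 without dorsal preconditioning 2 and 0.76 without dorsal control 1.

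Timp1, the metalloproteinase inhibitor, had few counts in controls (between 2 and 36 per library). Dorsal controls measured 1.13, 0.659, 0.944, 0.848 and 0.697 CPM. Dorsal preconditioned libraries measured 1.14, 16.2, 2.62, 2.63 and 1.76 CPM. The ranges did not overlap, although preconditioning 1, at 1.141 CPM, lay barely above control 1, at 1.134 CPM, and library 2 lay far above the rest. Dorsal Timp1 differed by 2.47 on the log2 scale (SE 0.66, adjusted p = 0.206), against 1.19 (SE 0.33, adjusted p = 0.222) without dorsal preconditioning 2. It was called in the fit of all 20 libraries (2.48, adjusted p = 0.0369). Ventral controls measured 0.619, 1.999, 0.479, 1.73 and 1.71 CPM, and ventral preconditioned libraries 2.66, 3.55, 2.80, 2.80 and 2.96 CPM. Here every preconditioned library lay above every control and no single one stood apart. The ventral log2 fold change, 1.02 (SE 0.31, adjusted p = 0.0750), was not called. It passed without ventral control 2 (adjusted p = 0.0376), and across the alternatives the adjusted p ran from 0.0224 to 0.354.

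Of the secreted proteins, Lgals3 had 2 to 8 counts per library in dorsal controls, or 0.361, 0.791, 0.145, 0.636 and 0.507 CPM. Dorsal preconditioned libraries had 9 to 85 counts, or 1.58, 6.61, 1.31, 1.91 and 1.004 CPM. Every preconditioned library lay above every control, and library 2 was the highest. On the log2 scale the difference was 2.44 (SE 0.57, adjusted p = 0.119), or 1.67 (SE 0.42, adjusted p = 0.141) without library 2. DESeq2 called it (adjusted p = 0.00615), as did the fit of all 20 libraries (0.0345). Lgals3 passed the low-count filter only where dorsal preconditioned libraries were in the fit, so its passing was not independent of its level there. In the ventral region it had 0 to 4 counts in controls and 2 to 12 after preconditioning. With no filter on low counts the ventral log2 fold change was 1.94 (SE 0.69, adjusted p = 0.161).

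Lcn2, the lipocalin, stayed close to the limit of detection and did not pass the low-count filter in any comparison. The 20 libraries held between 0 and 20 counts each, and group means were 0.241 ± 0.142 CPM in dorsal controls, 0.572 ± 0.314 in dorsal preconditioned, 0.341 ± 0.232 in ventral control and 0.461 ± 0.456 in ventral preconditioned libraries (SD, n = 5 each). Dorsal preconditioned and control ranges overlapped, and so did the ventral ones. Without the filter, the log2 fold changes were 1.25 (SE 0.60, adjusted p = 0.699) in the dorsal and 0.64 (SE 0.73, adjusted p = 0.705) in the ventral region. A difference was not detectable at this depth.

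The stress genes showed no called change with preconditioning. Hmox1 averaged 6.38 ± 0.982 CPM in dorsal controls and 6.36 ± 0.137 CPM in dorsal preconditioned libraries (SD, n = 5 each), where the lowest library measured 6.22 and the highest 6.56 CPM. Its log2 fold change was 0.00054, with an interval of 2 SE from -0.31 to 0.31 that leaves out a 2-fold change in either direction. In the ventral region Hmox1 averaged 2.96 ± 0.729 and 3.61 ± 0.712 CPM, which gave 0.24 on the log2 scale (SE 0.22, adjusted p = 0.640). Hspb1 ranged from 1.58 to 7.61 CPM in dorsal controls and from 3.09 to 9.48 CPM in dorsal preconditioned libraries. In the ventral region it ranged from 1.10 to 3.99 CPM in controls and from 0.970 to 7.95 CPM after preconditioning. The ranges overlapped in both regions. The log2 fold changes were 0.54 (SE 0.37, adjusted p = 0.784) and 0.70 (SE 0.47, adjusted p = 0.493), and their 2 SE intervals, from -0.20 to 1.28 and from -0.25 to 1.64, include both no change and a doubling.

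Because 4 dorsal values came from the same library, the dorsal preconditioned libraries were set against each other. In dorsal preconditioning 2, Timp1 was 7.97 times, Lgals3 4.55 times, Cd44 3.61 times and Vim 3.10 times the mean of the other 4 libraries. Gfap, at 1.09 times, Hmox1, at 0.972 times, and Lcn2, at 0.488 times, did not share this. Hspb1 was 1.78 times the mean of the others. Of all genes passing the filter over the 20 libraries, 3.02% were at least 2-fold above the mean log2 CPM of the other 4 libraries in this library, and 4 of the 8 genes of the list were. In the other 4 libraries of the group between 0.461% and 0.880% of genes were that high, and 0 of the 8. Dorsal preconditioning 2 was examined because of the same 4 genes, so their count is not an independent comparison with the share of all genes. The library had 11987801 counts, near the median of 11241706 over all libraries, and the part of other cell types in its profile was not tested because no marker gene could be named.

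**Figure D3:**
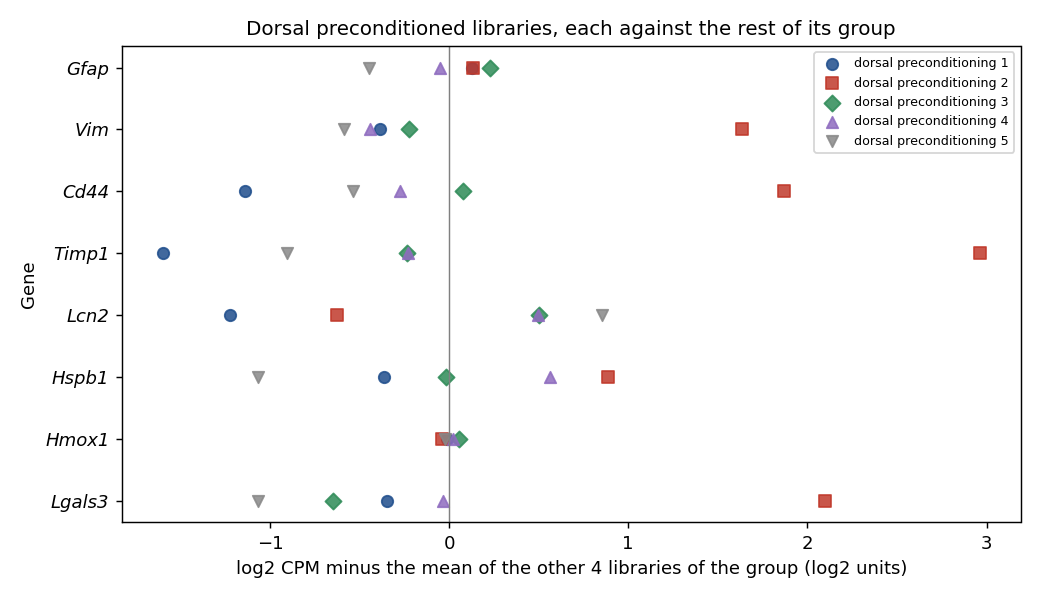
Log2 CPM of each gene in each dorsal preconditioned library minus the mean of the other 4 libraries of that group. Library 2 (squares) lies at 1.63 for Vim, 1.87 for Cd44, 2.96 for Timp1 and 2.10 for Lgals3, and at 0.14 for Gfap and -0.04 for Hmox1.

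**Figure D4:**
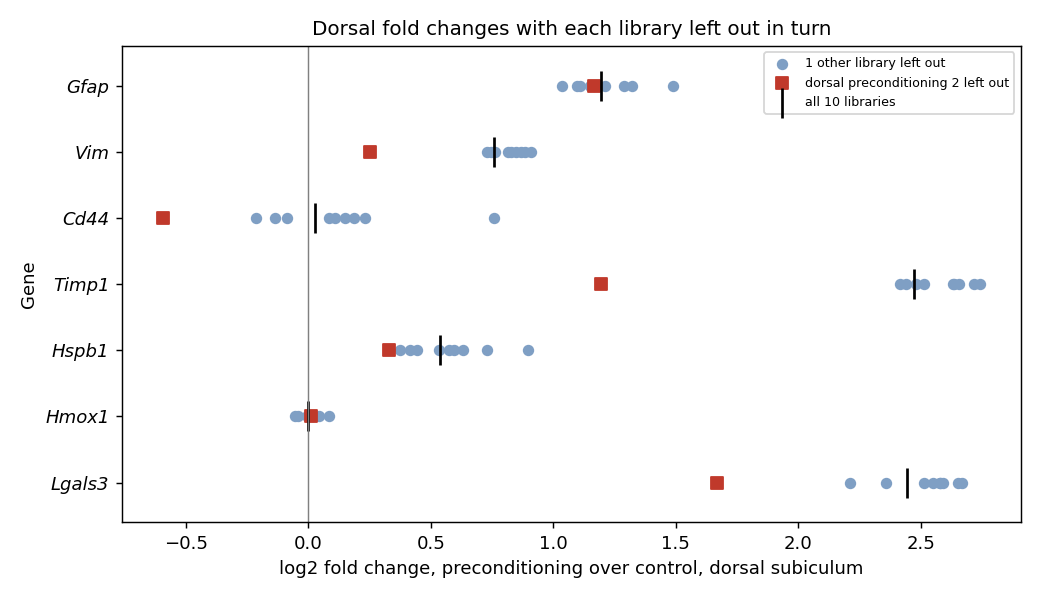
Dorsal log2 fold change, preconditioning over control, with 1 library left out at a time (points) and with all 10 libraries (vertical ticks). Leaving out dorsal preconditioning 2 (squares) moves Vim to 0.25, Cd44 to -0.59, Timp1 to 1.19 and Lgals3 to 1.67, and leaves Gfap at 1.17.

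An interaction term, the ventral minus the dorsal log2 fold change over the 20 libraries, asked whether the regions responded differently. Of the 8 genes 7 were tested (all but Lcn2) and 0 were called, against 0.0781% of 14087 genes, 0.071% with a positive and 0.0071% with a negative interaction. Before adjustment, Gfap and Cd44 had p-values under 0.05, with Cd44 ranked 864 among the 14087 genes. The share of all genes under 0.05 was not counted. DESeq2 called Gfap, among 54 called of 15816 tested genes. Gfap had an interaction of 1.65 (SE 0.37, adjusted p = 0.0928), and it ranked 27 by p-value. It was called with DESeq2 (adjusted p = 0.00594), limma-voom (0.0431) and without dorsal control 5, the lowest dorsal control (0.0282), and the adjusted p ran from 0.00430 to 0.261 over the alternatives. The lowest of these came from the fit with the replicate number as a block (1.54), which pairs dorsal with ventral libraries of the same number within each condition, although only the controls met the check of pairing in every pair. Cd44 had an interaction of 1.59 (SE 0.75, adjusted p = 0.738), so the ventral call and the dorsal estimate near 0 were not shown to differ. It was 0.88 without dorsal control 1 and 2.21 without dorsal preconditioning 2, and was called in neither. For Timp1 the interaction was -1.46 (SE 0.79, adjusted p = 0.793), and -0.16 without dorsal preconditioning 2. The remaining 4 tested genes had interactions between -0.48 and 0.23, with adjusted p-values of 0.916 or more.

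The regions were then compared within each condition, as ventral over dorsal. In controls, Gfap was 7.13-fold, Cd44 5.36-fold, Vim 2.23-fold and Hmox1 2.06-fold lower in the ventral than in the dorsal subiculum. After preconditioning the ventral level of Gfap was 2.27-fold, Vim 2.44-fold, Hmox1 1.74-fold and Lgals3 3.86-fold lower. No gene of the list was called higher in the ventral region in either condition. In controls 4 of 6 tested genes were called, all lower in the ventral region, where 25.7% of 13509 genes were called, 11.2% higher and 14.5% lower. After preconditioning 4 of 7 were called, all lower, where 26.7% of 13640 genes were called, 12% higher and 14.7% lower. Lgals3 is among these 4, and it passed the low-count filter only where dorsal preconditioned libraries were in the fit. Its place in this count is therefore not independent of its dorsal level. Regional calls were thus common among all genes. Dorsal and ventral control libraries with the same number deviated from their groups together over all genes, so the fit with these pairs as a block is given below where it changes a call.

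**Figure D5:**
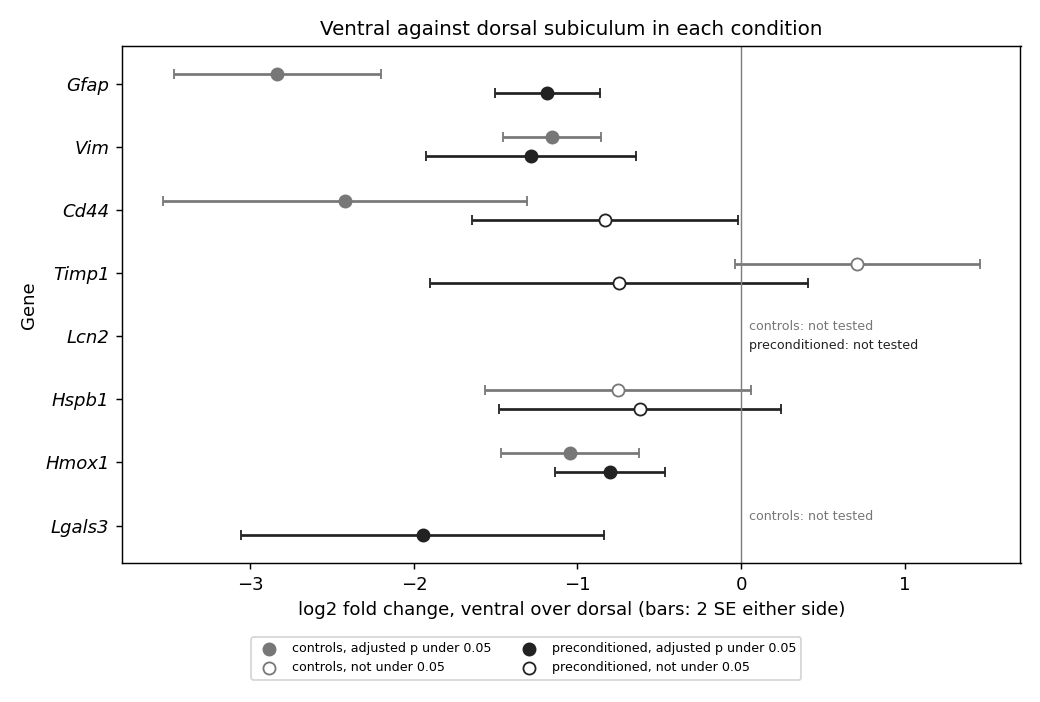
Log2 fold change of each gene, ventral over dorsal subiculum, in controls (grey) and after preconditioning (black); bars reach 2 standard errors either side, and filled points passed an adjusted p of 0.05. Gfap lies at -2.83 in controls and -1.18 after preconditioning, while Vim (-1.15 and -1.28) and Hmox1 (-1.05 and -0.80) lie close together in the 2 conditions.

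The lowest dorsal control for Gfap, at 353 CPM, lay above the highest ventral control, at 119 CPM. The regional log2 fold change was -2.83 (SE 0.32, adjusted p = 1.96e-05). Of the 13509 tested genes 0.304% had a lower one. After preconditioning it was -1.18 (SE 0.16, adjusted p = 7.62e-05), again without overlap of the ranges. In 5 of 5 same-numbered pairs the dorsal library was higher, by 2.17 to 3.58 on the log2 scale in controls and by 0.89 to 1.62 after preconditioning.

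Vim, in the same sense, was lower in the ventral region by log2 fold changes of -1.15 (SE 0.15, adjusted p = 6.98e-05) in controls and -1.28 (SE 0.32, adjusted p = 0.00843) after preconditioning, with no overlap in either condition. Without dorsal preconditioning 2 the second value was -0.76 (adjusted p = 0.00367), and with no filter on low counts its adjusted p was 0.0594. Hmox1 had log2 fold changes of -1.05 (SE 0.21, adjusted p = 0.00217) and -0.80 (SE 0.17, adjusted p = 0.00257), also without overlap. Non-overlapping ranges on the lower side occurred in 10.3% of tested genes in each condition (on the higher side in 8.62% in controls and 8.75% after preconditioning), and in 3 of the 8 genes of the list, namely Gfap, Vim and Hmox1.

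Cd44 differed between the regions by -2.42 (SE 0.56, adjusted p = 0.00529) in controls, where the ranges overlapped between dorsal control 3, at 2.61 CPM, and ventral control 4, at 3.41 CPM. Without dorsal control 1 the value was -1.74 (adjusted p = 0.0130). After preconditioning it was -0.83 (SE 0.41, adjusted p = 0.153) and was not called, and without dorsal preconditioning 2 it was -0.20 (adjusted p = 0.636). Lgals3 was called after preconditioning at -1.95 (SE 0.55, adjusted p = 0.0175). That value was -1.16 (adjusted p = 0.0474) without dorsal preconditioning 2, and in both cases Lgals3 entered the test through its dorsal level. In controls, with no filter, it was -1.46 (SE 0.73, adjusted p = 0.196).

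Timp1 was the single tested gene with a higher estimate in the ventral region in controls, 0.71 (SE 0.37, adjusted p = 0.185). After preconditioning it was -0.75 (SE 0.58, adjusted p = 0.383), and 0.56 (adjusted p = 0.139) without dorsal preconditioning 2, so the sign of that estimate rested on 1 library. Hspb1 had estimates of -0.75 (SE 0.41, adjusted p = 0.194) in controls and -0.62 (SE 0.43, adjusted p = 0.327) after preconditioning. With the control pairs as a block, Hspb1 was lower in the ventral region at -0.75 (SE 0.26, adjusted p = 0.0331), and dorsal libraries were higher in 5 of 5 pairs, by 0.049 to 1.11 on the log2 scale. For Lcn2, with no filter, the values were 0.42 (SE 0.71, adjusted p = 0.727) and -0.19 (SE 0.64, adjusted p = 0.879).

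Ordered by mean level over the 4 groups, Vim was lowest in ventral controls (13.1 CPM), followed by ventral preconditioned (20.2), dorsal control (28.9) and dorsal preconditioned libraries (49.2), and of these neighbours only the first pair had ranges apart. Cd44 followed the same order, at 1.83, 6.35, 10.5 and 10.9 CPM, with every neighbouring pair overlapping. The dorsal places of Cd44 rested on 1 library in each group, with means of 6.65 CPM without dorsal control 1 and 7.17 CPM without dorsal preconditioning 2. Timp1 was lowest in dorsal controls (0.856 CPM), before ventral control (1.31), ventral preconditioned (2.95) and dorsal preconditioned libraries (4.88), and the ventral pair had ranges apart. The last place rested on dorsal preconditioning 2, since the other 4 dorsal preconditioned libraries averaged 2.04 CPM, below the ventral preconditioned mean. Hmox1 ordered by region, at 2.96 and 3.61 CPM in the ventral and 6.36 and 6.38 CPM in the dorsal groups, with the gap between the regions. For Hspb1, Lgals3 and Lcn2 every neighbouring pair overlapped.

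The genes whose log2 CPM followed that of Gfap most closely over the 20 libraries were ENSRNOG00000020480, at a Pearson r of 0.965 (Spearman rho 0.884), and ENSRNOG00000049695, at 0.945 (rho 0.931), out of 14086 genes. These are descriptions over 4 groups that differ in region and condition, so they include the differences between groups. After subtraction of group means the r values were 0.554 and 0.665. Neither ID could be named. ENSRNOG00000020480 measured 188 ± 22.2 and 237 ± 8.90 CPM in dorsal control and preconditioned libraries, and 127 ± 7.27 and 192 ± 8.22 CPM in the ventral ones (SD, n = 5 each). Within the list, Cd44 (r 0.750), Vim (0.735) and Lgals3 (0.718) followed Gfap most closely across groups by Pearson r, and Timp1 (0.372) least. By Spearman rho the order was Vim (0.806), Lgals3 (0.777) and Cd44 (0.681), with Timp1 (0.362) again least. With group means subtracted, the 6 other tested genes had r values with Gfap between -0.10 and 0.22.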

How the data were processed

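Gene expression was measured by RNA-seq of stranded poly(A) libraries (TruSeq Stranded mRNA LT) in 20 samples, per the labels' protocols. The authors deposited raw counts per Ensembl gene ID, with no normalization. STAR, DESeq2 and the build Rnor 5.0 are named in the submitters' processing notes; the counter, annotation and strand setting are not given in the sources used here, and reads shared with near-identical genes were not assessed. Treated columns begin with e where titles begin with p, and were matched by number and region.

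Of 47357 RefSeq genes 0 could be matched to the IDs, so planned lists of related genes and cell type markers were not counted. Genes and lists were chosen with earlier results of these data known. All 8 genes are named. Likeness to Gfap was taken as the 2 genes of highest Pearson r. Upstream sequences were matched by symbol and belong to GRCr8, another build.

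The tests used edgeR 4.0.16 under R 4.3.3 (filterByExpr, TMM, glmQLFit with robust=TRUE, glmQLFTest) over all genes, with Benjamini-Hochberg adjusted p-values under 0.05 called. Each comparison of 5 against 5 used its 10 libraries, and the interaction all 20. SE is the log2 fold change divided by the root of F. CPM used TMM over the 20 libraries, and log2 CPM a prior count of 2. Alternatives were DESeq2 1.42.0, its size factors, other filters, limma-voom 3.58.1, one fit of all libraries, a replicate block and each library left out; the omission of 3 libraries together was chosen after seeing the data. The method was tested on simulated counts with 2-fold changes. It recovered 74.6% of changed genes in the dorsal and 72.3% in the ventral treatment comparison. Recovery was 48.7% for the interaction, and 73.2% and 77.5% for the regions in controls and after preconditioning. Among changed genes of low count these shares were 25.5%, 34.0%, 4.29%, 26.8% and 37.7%, in the same order. A missing call for a low-count gene is therefore not evidence of no change. The simulation changed few genes, 190 of 13519 for the regions in controls, where 3472 of 13509 were called in the data. It held no outlying library and no pairing, so recovery in the data may differ.

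Same-numbered dorsal and ventral controls deviated together over genes in all 5 pairs (r from 0.200 to 0.393, each library's best match), which is taken as pairing. The labels do not say that these came from one animal. For the other comparisons not every pair exceeded 0.1. No 2 libraries of a group (40 pairs) agreed within counting noise (chi-square per degree of freedom from 3.37 to 60.9). P-values measure the spread between these samples, and floors cover counting error only.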

Additional observations from a re-analysis of the deposited data

Results flagged for a closer look

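Each gene was searched in each group for a library whose gap to its nearest neighbour took more than 0.71 of the group's range (Dixon's criterion for 5 samples). The search used CPM on a linear scale and was not repeated on log2 CPM. The 32 sets of values gave 5 such libraries, each the highest of its group. About 1 set in 20 (1.6 here) would be flagged among normally distributed values. Whether CPM is so distributed was not checked, so the 2 numbers cannot be compared directly. In dorsal preconditioning 2, Vim measured 107 CPM with the next library at 38.3, Cd44 25.9 CPM with the next at 9.47, Timp1 16.2 CPM with the next at 2.63, and Lgals3 6.61 CPM with the next at 1.91. These 4 values come from 1 library and are not independent. In ventral preconditioning 2, Vim measured 29.8 CPM with the next library at 20.3, a gap of 0.71004 of the range that only just passed the criterion.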

How the results depend on the processing

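Over 33 results for single genes, 591 of 641 alternative values kept their direction and side of the threshold, 24 passed it where the reported value did not, 2 lost it and 24 changed sign. All sign changes were in values that were not called. The number of genes called among all tested depended on the method for treatment. In the dorsal comparison DESeq2 called 167 of 16207 tested genes and limma-voom 165 of 13647. All 20 libraries in one fit called 97 of 14087, and the fit without the 3 libraries apart 105 of 13713. The reported fit called 37 of 13647. Of the 8 genes these called, in order, 2, 1, 3 (Gfap, Timp1 and Lgals3), 0 and 0. DESeq2 tested all 8 and the others 7. In the ventral comparison DESeq2 called 1051 of 15384 tested genes, limma-voom 1508 of 13291 and the fit without the 3 libraries 1029 of 13338. The reported fit called 672 of 13291. Each of these alternatives called 4 genes of the list (Gfap, Vim, Cd44 and Timp1), out of 8, 6 and 6 tested. All 20 libraries in one fit (741 of 14087) and a mean count of at least 50 (583 of 10935) each left 1, Gfap. The former tests 7 of the 8 and the latter 2. For the interaction DESeq2 called 54 of 15816 tested genes, limma-voom 97 of 14087 and the fit without the 3 libraries 28. The reported fit called 11 of 14087. The alternatives called 1, 1 and 0 of the 8, in the same order. With each library left out, the dorsal count ran from 15 to 50 (0 to 1 of the 8; 15 without dorsal preconditioning 3, 21 without dorsal preconditioning 1), the ventral from 432 (without ventral control 5; 446 without ventral preconditioning 4) to 1029 (without ventral control 2; 2 to 4 of the 8), and the interaction from 6 (without dorsal control 2, ventral control 3, dorsal preconditioning 5, or ventral preconditioning 1 or 3) to 20 (without ventral preconditioning 5; 0 to 1 of the 8), with 7 without ventral control 5, dorsal preconditioning 3 or ventral preconditioning 4 and 17 without dorsal control 3. Both regional comparisons stayed within 1.5 times throughout. A library left out can also take Timp1 below the count filter, which left 7 of 10 such values for its regional difference in controls.

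The replicate number as a block has a basis in the pairing for controls only, where it changed the call for Hspb1 and no other. Elsewhere samples share a number. The replicate block then gave 26 dorsal calls of 13647 tested genes, with 1 of the 8 (Gfap, adjusted p = 0.0399). It gave 1261 ventral calls of 13291, with 4 of the 6 tested genes of the list. For the interaction it gave 62 calls of 14087, with 1 of the 8 (Gfap, adjusted p = 0.00430). Hspb1 was at -0.72 (adjusted p = 0.0476) between regions after preconditioning.

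Sign changes were as follows. Dorsal Cd44 was -0.59 with limma-voom, -0.78 without the 3 libraries, and -0.59 to 0.76 with 1 left out. Dorsal Hmox1 ran from -0.055 to 0.084 with 1 left out. The Vim interaction was 0.0082 with the replicate block, 0.27 with limma-voom, 0.50 without the 3 libraries and -0.31 to 0.39 with 1 left out. The Hspb1 interaction was -0.059 with limma-voom and -0.21 to 0.44 with 1 left out, and that of Lgals3 was 0.30 without the 3 libraries and -0.92 to 0.30 with 1 left out. Timp1 between regions after preconditioning was 0.30 with limma-voom, 0.56 without the 3 libraries and -0.999 to 0.56 with 1 left out. Causes were not tested. Counts were lowest for Lcn2 and Lgals3, at most 20 and 85 in any library.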

Other observations

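Vim and Timp1 were highest in the library numbered 2 in both preconditioned groups. The Vim levels there were 107 CPM (dorsal) and 29.8 CPM (ventral), and the Timp1 levels 16.2 and 3.55 CPM. Cd44 and Lgals3, also highest in dorsal preconditioning 2, measured 5.29 and 0.746 CPM in ventral preconditioning 2, against ventral group maxima of 8.92 and 1.27 CPM. Whether a shared number means a shared animal is not in the labels. Within dorsal controls, library 2 had the highest Gfap (1183 CPM), Vim (32.5 CPM), Hmox1 (7.64 CPM), Lgals3 (0.791 CPM) and Lcn2 (0.395 CPM) but the lowest Timp1 (0.659 CPM) and Hspb1 (1.58 CPM), from counts of 5 or fewer for Lcn2 and Timp1.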
